A study of Homo sapiens with 21 samples.

Results

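The transcriptomes of CRT35 melanoma cells growing on BRAF and MEK inhibitors were compared with those of the untreated melanoma line from which they derive. A375 is a human melanoma cell line that carries an activating BRAF mutation. CRT35 is a drug-tolerant line obtained from an A375 tumour that had grown in a mouse given BRAF and MEK inhibitors. The 3 CRT35 Combo libraries came from CRT35 cells kept on the BRAF inhibitor PLX4720 at 1 µM together with the MEK inhibitor PD0325901 at 35 nM. The 3 A375 parental libraries came from A375 cells with neither inhibitor, so that line history and drug differ together and their parts cannot be told apart in this comparison alone. These 6 libraries are among 21 in the series. CRT35 DMSO (CRT35 cells given the solvent alone, 3 libraries) and CRT34 Combo (a second tolerant line on the same inhibitors at the same doses, 3 libraries) served for comparison, against CRT35 Combo cells and, for context, against the same parental libraries. All of these cells carry the A375 background, and each tolerant line is a single line. The time on drug is not given in the sources used here, and the labels do not say that the libraries of a group were separate cultures. P-values therefore measure only the spread between libraries. That spread was pooled over all 21 libraries of the series, including groups not compared here.

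The BRAF-MEK-ERK cascade carries growth factor signals to the nucleus, and an activating BRAF mutation keeps it on without a ligand. BRAF and MEK inhibitors turn the cascade down, and the immediate transcripts of ERK, such as those of the DUSP phosphatases and SPRY inhibitors, are commonly read as its output. Melanocytes descend from the neural crest, a migratory embryonic population in which SOX10 is a lineage transcription factor, and melanoma cells can take up states with low SOX10 that resemble mesenchymal cells.

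Values are gene read estimates that the study's authors scaled between libraries, called normalised counts below. A log2 change is the difference of group means of log2(normalised count + 1), given with its standard error, and it understates the change of genes with low values. A gene was called when its Benjamini-Hochberg adjusted p from limma was 0.05 or lower and its fold change was 2 or more. Genes named for the largest changes were also required to have no overlap between the groups. Absence of overlap in them therefore follows from their selection. Other list members were named mainly from called genes with low p, which also favours absence of overlap. It was common, present in 1356 higher and 948 lower protein-coding genes with a call against parental cells and at least 10 CPM. Its share over all genes tested was not counted, so below it is no support beyond the call. Between CRT35 Combo and parental cells, 5839 of 19290 genes tested were called (30.3%), of which 3876 were higher in CRT35 Combo cells (20.1% of genes tested) and 1963 lower (10.2%). Counts of called list members against parental cells below are to be read beside these shares. Protein-coding genes made up 2982 of the higher and 1528 of the lower calls, and long non-coding RNAs 656 and 291. A change of 5 or more on the log2 scale was reached by 339 higher and 126 lower genes. The excess of higher calls depended on scaling, since 66.4% of calls were higher on the deposited scale, with a median change of 0.05 over all genes, against 50.8% after quantile normalisation, which moved that median to -0.13. With no fold threshold and no adjustment, 30.8% of all genes tested were higher and 26.1% lower at p below 0.05 in limma, against which the unadjusted counts of lists below are to be read. Rescaling to equal totals moved the median change over all genes to 0.13.

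Library totals ran between 59200000 and 68300000 over the 21 libraries, and the depth estimated from the value of 1 read was 65000000 to 71700000 reads in CRT35 Combo libraries and 64400000 to 75500000 in parental libraries. It was 27100000 in CRT35 DMSO replicate 1 and 59800000 and 65000000 in the other CRT35 DMSO libraries. Against the same parental libraries, limma called 4572 genes in CRT35 DMSO cells (23.7%, with 15.7% higher and 7.98% lower) and 5239 in CRT34 Combo cells (27.2%, with 19.1% higher and 8.09% lower). Mitochondrial transcripts took 1.48% to 2.38% of the values in CRT35 Combo libraries and 0.987% to 1.19% in parental libraries. Pearson's r over genes, which are not independent replicates, was 0.979 to 0.985 between CRT35 Combo libraries and 0.882 to 0.906 between CRT35 Combo and parental libraries.

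SOX10, the lineage factor of the neural crest, was listed at 0 in every CRT35 Combo library, against 10348, 11877 and 12822 in parental libraries (limma adjusted p = 6.66e-14). The gene lies at chr22:37970686-37987422, minus strand, and on the other strand it overlaps POLR2F over 16737 bases, so that reads of the overlap can be misassigned if strand was not kept. SOX10 was also listed at 0 in all 3 CRT35 DMSO and all 3 CRT34 Combo libraries. In bulk RNA, fewer cells of a type and less RNA per cell cannot be told apart.

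The other genes of the neural crest and glial list were mostly lower too. Of 27 tested, 15 were lower and 5 higher, with a median change of -1.60 against 0.05 over all genes. CDH19, a cadherin of Schwann cell precursors, had 1.48, 0 and 0 in CRT35 Combo cells, against 2311, 2052 and 1895 in parental cells (log2 change -10.59 ± 0.90, limma adjusted p = 2.02e-08). CDH19 had at most a few counts in CRT35 Combo libraries, and the groups did not overlap, as its selection among the largest changes required. S100B, a calcium-binding protein used as a melanoma marker, had 0, 1.65 and 0 in CRT35 Combo cells, against 365, 683 and 446 in parental cells (log2 change -8.44 ± 0.52, limma adjusted p = 2.68e-10). MIA, a secreted protein of melanoma and cartilage, had 9.40, 8.36 and 5.55 in CRT35 Combo cells, against 3700.3, 3874 and 3572 in parental cells (log2 change -8.75 ± 0.30, limma adjusted p = 6.3e-14), and its reads cannot be separated fully from the readthrough gene MIA-RAB4B that covers it. ERBB3, a receptor that pairs with ERBB2 to bind neuregulins, had 54.9, 78.8 and 47.1 in CRT35 Combo cells, against 5993, 9355 and 9197 in parental cells (log2 change -7.07 ± 0.51, limma adjusted p = 2.43e-09). These 3 genes were also without overlap between the groups, which for MIA was a condition of its selection.

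Transcription factors of early neural crest divided. SOX2 (-6.74), SOX5 (-6.32), FOXD3 (-4.37) and RXRG (-4.55) fell, each on the log2 scale, and TFAP2B was listed at 0 in every CRT35 Combo library, against 479.9, 809 and 737 in parental libraries. NGFR, a receptor that marks neural crest stem cells, had 26.9, 41.0 and 37.3 in CRT35 Combo cells, against 760.4, 757 and 724 in parental cells (log2 change -4.40 ± 0.40, limma adjusted p = 4.59e-08). On the other side, SNAI2, a zinc finger repressor used by migrating neural crest and mesenchymal cells, had 1926, 1838 and 2311 in CRT35 Combo cells, against 37.8, 40.3 and 31.5 in parental cells (log2 change 5.75 ± 0.23, limma adjusted p = 7.91e-13). SOX9, which is needed for cartilage and for neural crest, had 935, 823 and 522 in CRT35 Combo cells, against 213, 214 and 261 in parental cells (log2 change 1.69 ± 0.23, limma adjusted p = 8.66e-06). Both factors were higher in every CRT35 Combo library than in any parental library.

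More genes of pigment cells were called higher than lower. Of 20 melanocytic genes, 13 had enough reads to test, and 5 were higher and 1 lower, against 20.1% and 10.2% of all genes. At an unadjusted p below 0.05 in limma 6 were higher and 4 lower, against 30.8% and 26.1%. After quantile normalisation 4 were called higher and 3 lower. The lower count was 2 with the compared groups alone, without CRT35 Combo replicate 2 and without CRT35 Combo replicate 3. MITF, the master regulator of melanocytes, had 4116, 2934 and 3097 in CRT35 Combo cells, against 1502, 1448 and 1390 in parental cells (log2 change 1.21 ± 0.31, limma adjusted p = 0.00321). The 3 CRT35 Combo libraries lay above all parental libraries for MITF. Genes of melanosome proteins had few reads in either group. MLANA was listed at 0 in all 6 libraries, TYR reached at most 0.957 in a CRT35 Combo library and 0 in parental libraries, and PMEL had 65.3, 37.6 and 42.1 in CRT35 Combo cells, against 46.5, 36.7 and 32.2 in parental cells (log2 change 0.30 ± 0.38, limma adjusted p = 0.538). The rise of SLC45A2, a melanosome transporter with a log2 change of 2.34, lost its call under quantile normalisation (adjusted p 0.186) and when parental replicate 2 or 3, or CRT35 Combo replicate 1 or 2, was left out, with adjusted p between 0.0624 and 0.13.

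**Figure D1:**
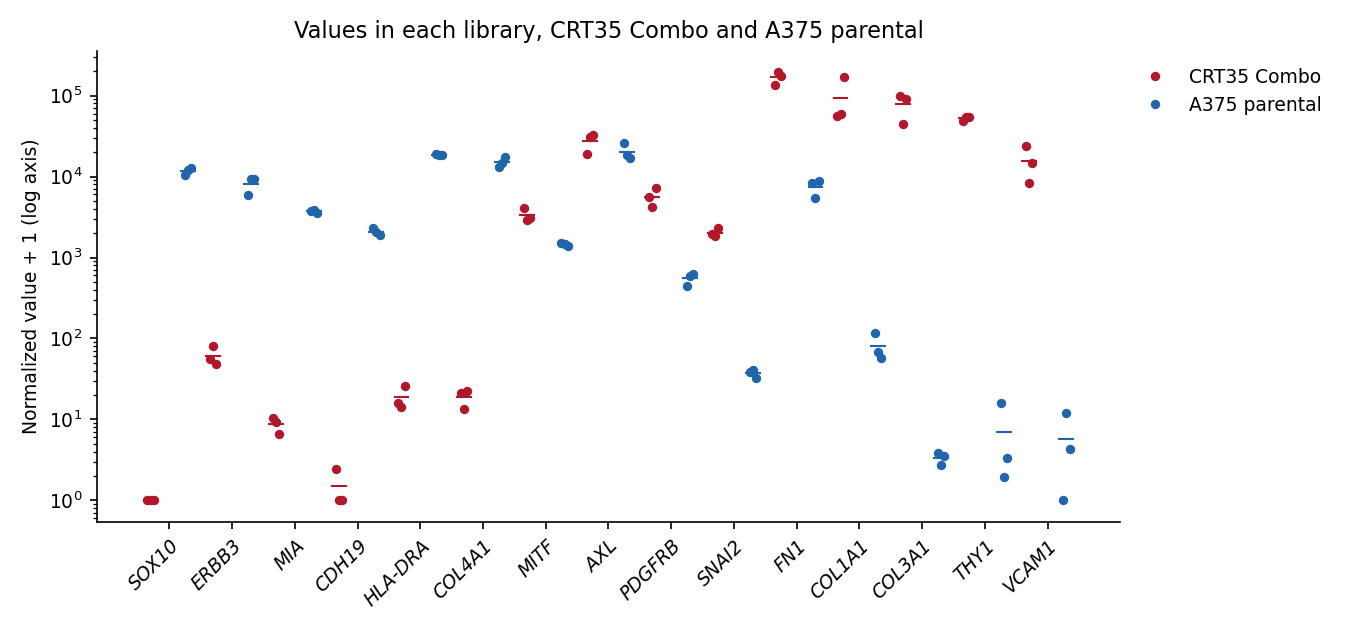
Normalised counts plus 1 of 15 genes in each of the 3 CRT35 Combo libraries (red, left) and the 3 parental libraries (blue, right), on a log axis, with a bar at the group mean. SOX10, ERBB3, MIA, CDH19, HLA-DRA and COL4A1 lie low in CRT35 Combo cells, AXL overlaps between the groups, and COL3A1, THY1 and VCAM1 lie at low values in parental cells.

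Receptor tyrosine kinases were called in both directions. Of 31 tested, 8 were higher and 8 lower, with a median of 0.03. PDGFRB, the receptor of platelet-derived growth factor B, had 5547, 4159 and 7274 in CRT35 Combo cells, against 449, 597 and 621 in parental cells (log2 change 3.32 ± 0.37, limma adjusted p = 6.56e-07). PDGFRA, its close relative, had 599.6, 557 and 435 in CRT35 Combo cells, against 72.2, 84.6 and 51.7 in parental cells (log2 change 2.93 ± 0.43, limma adjusted p = 1.79e-05). ROR2, a receptor of WNT5A, had 312, 205 and 213 in CRT35 Combo cells, against 6.90, 4.09 and 0.919 in parental cells (log2 change 5.82 ± 0.54, limma adjusted p = 6.96e-08). These 3 receptors were higher in every CRT35 Combo library than in any parental library. EGFR, the epidermal growth factor receptor, had 6701, 6814 and 5439 in CRT35 Combo cells, against 3069, 2517 and 2368 in parental cells (log2 change 1.25 ± 0.20, limma adjusted p = 5.09e-05). AXL, whose high level marks undifferentiated melanoma cells, had 19244, 30639 and 32661 in CRT35 Combo cells, against 25734, 18434 and 16724 in parental cells (log2 change 0.43 ± 0.30, limma adjusted p = 0.253) and was not called. The AXL values of the groups overlapped. On the lower side stood ERBB3 and the fibroblast growth factor receptors FGFR2 (-2.00), FGFR3 (-2.02) and FGFR4 (-2.87) on the log2 scale. The fall of NTRK2, a neurotrophin receptor at -1.32, was lost when any library except CRT35 Combo replicate 2 was left out and under 5 other settings.

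Their ligands moved mostly upward. Of 27 ligand genes tested, 17 were higher and 1 lower (median 2.05), or 2 lower after quantile normalisation. HGF, the ligand of MET, had 866, 810.5 and 488 in CRT35 Combo cells, against 0, 1.89 and 2.85 in parental cells (log2 change 8.29 ± 0.53, limma adjusted p = 3.93e-10). FGF7, a ligand of FGFR2, had 167, 66.4 and 32.3 in CRT35 Combo cells, against 2.41, 1.23 and 3.64 in parental cells (log2 change 4.46 ± 0.72, limma adjusted p = 4.41e-05). Both were called and did not overlap between groups. GAS6 and PROS1, the ligands of AXL, changed by 2.05 and 2.19, and PDGFA and PDGFC by 2.37 and 2.27, each a log2 change past the test. The ligand that fell was TGFA, which binds EGFR, with 362, 367 and 113 in CRT35 Combo cells, against 14230, 15303 and 18141 in parental cells (log2 change -6.00 ± 0.53, limma adjusted p = 3.24e-08). The calls of HBEGF and IGF2 were lost when certain libraries were left out, for HBEGF parental replicate 2 or 3 or CRT35 Combo replicate 2 or 3 (adjusted p 0.0601 to 0.0901) and for IGF2 parental replicate 2 or CRT35 Combo replicate 1 or 2 (0.0785 to 0.111).

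Several feedback inhibitors and immediate early genes among the ERK targets fell in CRT35 Combo cells. Of 35 tested, 12 were lower and 2 higher than in parental cells (median -0.77). DUSP6, the phosphatase that switches off ERK, had 4491, 3246 and 1562 in CRT35 Combo cells, against 7366, 8003 and 8996 in parental cells (log2 change -1.51 ± 0.27, limma adjusted p = 0.000148). SPRY2, an inhibitor of receptor signals to ERK, had 753, 722 and 402 in CRT35 Combo cells, against 8103, 8683 and 9085 in parental cells (log2 change -3.83 ± 0.22, limma adjusted p = 8.35e-11). ETV4, an ETS transcription factor, had 628, 1279.9 and 586 in CRT35 Combo cells, against 6841, 8670.5 and 8636 in parental cells (log2 change -3.36 ± 0.32, limma adjusted p = 8.56e-08). In each of these genes the groups did not overlap. EGR1, an immediate early transcription factor, had 84.0, 52.5 and 155 in CRT35 Combo cells, against 581, 517 and 492 in parental cells (log2 change -2.57 ± 0.57, limma adjusted p = 0.000996), and EGR3, from the same family, had 14.2, 6.25 and 0.890 in CRT35 Combo cells, against 171, 194 and 313 in parental cells (log2 change -5.21 ± 0.66, limma adjusted p = 3.11e-06). MYC, the growth-promoting transcription factor, had 474, 632 and 612 in CRT35 Combo cells, against 1380.1, 1462 and 1863 in parental cells (log2 change -1.45 ± 0.41, limma adjusted p = 0.00672). CCND1, which encodes cyclin D1, had 20912, 29318 and 7959.6 in CRT35 Combo cells, against 21644, 16455 and 17778 in parental cells (log2 change -0.13 ± 0.49, limma adjusted p = 0.852) and was not called, nor were FOSL1 (-0.81), PHLDA1 (-0.66) and SPRED1 (-0.37). CXCL8, a neutrophil chemokine that is also a target of other pathways, was among the 2 higher members, of which 1 was left without parental replicate 1.

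CRT35 DMSO cells allowed the same list to be read with the line held constant. Against CRT35 DMSO cells, 12 of 35 ERK targets were lower in CRT35 Combo cells and 0 higher (median -0.86, with 21 lower and 0 higher at an unadjusted p below 0.05 in limma, against 6.69% and 8.81% of all genes), where 0.648% of all genes tested were lower and 0.487% higher, 219 genes or 1.14% in all. DUSP6 had 4491, 3246 and 1562 in CRT35 Combo cells, against 17058, 14058 and 13478 in CRT35 DMSO cells (log2 change -2.38 ± 0.27, limma adjusted p = 0.000169). EGR1 had 84.0, 52.5 and 155 in CRT35 Combo cells, against 529, 622 and 579 in CRT35 DMSO cells (log2 change -2.69 ± 0.57, limma adjusted p = 0.0213). The remaining 10 were EGR3, DUSP4, SPRY2, ETV4, PHLDA1, SPRY4, DUSP5, LIF, TRIB1 and SPRED1, between -2.67 and -1.10 on the log2 scale. PHLDA1, DUSP5, LIF and SPRED1 passed the test against CRT35 DMSO cells and not against parental cells, where the log2 values were -0.11 for LIF and -0.77 for DUSP5. The difference between the comparisons was not tested, and they share the CRT35 Combo libraries. Few genes of the pathway itself were called. Of 21 core MAPK genes, KSR1 (1.53), MAP3K8 (2.178) and RASGRP3 (2.50) were higher and RASA2 (-1.53) lower against parental cells, and neither BRAF (0.12) nor MAP2K1 (0.24) was called. MAP3K8 encodes a kinase that can activate MEK, and RASA2 a protein that turns RAS off.

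**Figure D2:**
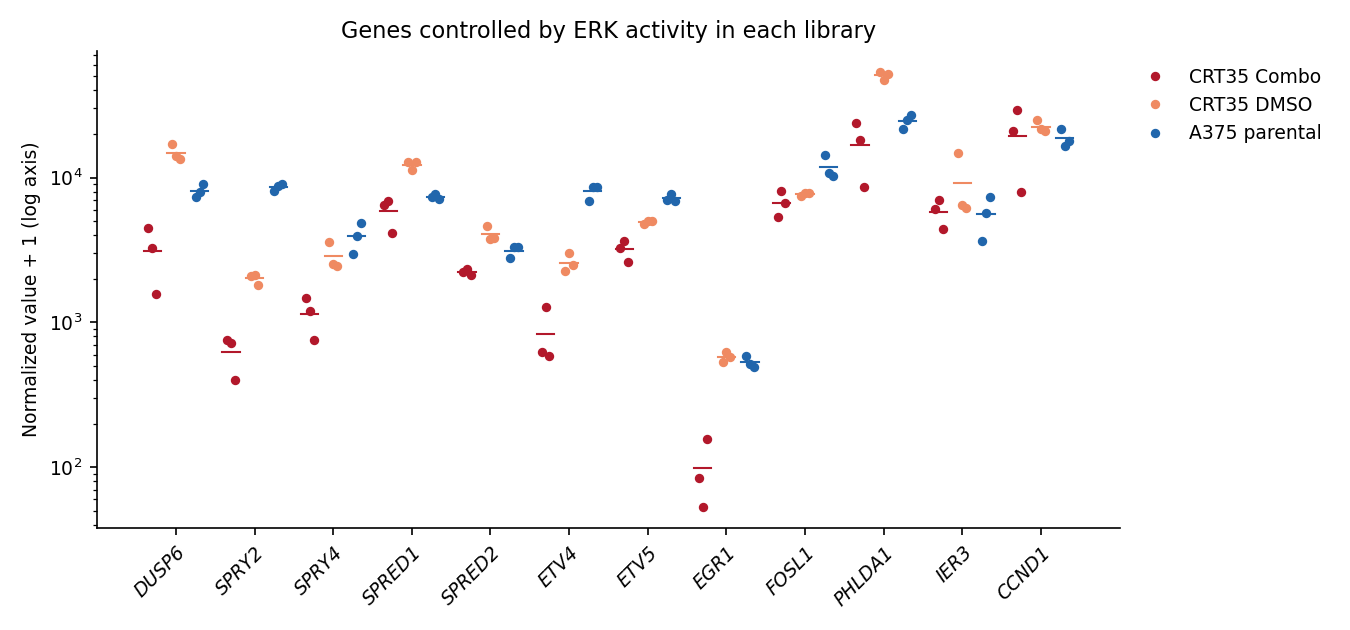
Normalised counts plus 1, on a log axis, of 12 ERK target genes in CRT35 Combo, CRT35 DMSO and parental libraries, 3 each, with a bar at the group mean. DUSP6, SPRY2, SPRY4, ETV4 and EGR1 are lowest in CRT35 Combo libraries, and CCND1 overlaps between all 3 groups.

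Most collagen genes rose. Of 21 tested, 15 were higher and 2 lower in CRT35 Combo cells (median 3.22). COL3A1, a fibrillar collagen of soft connective tissue, had 99891, 44099.7 and 91691 in CRT35 Combo cells, against 2.83, 1.71 and 2.50 in parental cells (log2 change 14.45 ± 0.32, limma adjusted p = 2.03e-16). COL1A2, a chain of type I collagen, had 184084, 153660 and 202259 in CRT35 Combo cells, against 22.5, 20.02 and 9.96 in parental cells (log2 change 13.31 ± 0.65, limma adjusted p = 1.11e-11), and COL1A1, which encodes the other chain, had 55681, 58809 and 169179 in CRT35 Combo cells, against 117, 67.7 and 56.3 in parental cells (log2 change 10.05 ± 0.52, limma adjusted p = 2.15e-11). For all 3 genes the lowest CRT35 Combo library lay far above the highest parental library. Separation of the groups was a condition of their selection among the largest changes. COL6A3 (6.53), COL8A1 (6.80), COL5A1 (4.88) and COL15A1 (4.87) rose too, each on the log2 scale. COL5A3 (3.42) lost its call without parental replicate 2 or without CRT35 Combo replicate 3.

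The 2 collagens that fell form the main network of basement membranes. COL4A1 had 20.4, 12.4 and 21.5 in CRT35 Combo cells, against 13289, 14701 and 17579 in parental cells (log2 change -9.66 ± 0.22, limma adjusted p = 2.03e-16). COL4A2 had 167, 283 and 265 in CRT35 Combo cells, against 12106, 13316 and 15752 in parental cells (log2 change -5.87 ± 0.24, limma adjusted p = 7.05e-13). They sit head to head on chromosome 13 (chr13:110148963-110307157, minus strand for COL4A1), and their spans in the GENCODE annotation overlap by 1346 bases. The segment between their RefSeq start sites is shown because both genes are transcribed outward from it, with its CCAAT match in capitals. None of the other 8 motifs searched here matched in it.

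COL4A1-COL4A2 (chr13:110307158-110307283, plus strand, GRCh38.p14): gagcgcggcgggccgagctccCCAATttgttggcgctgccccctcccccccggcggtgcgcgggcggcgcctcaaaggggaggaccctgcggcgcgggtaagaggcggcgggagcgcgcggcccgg

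CRT34 Combo cells did not share this fall, since COL4A1 had 89798, 119188 and 123524 and COL4A2 had 46885, 45106 and 33787 there (CRT35 Combo against CRT34 Combo, log2 change -12.52 ± 0.22, limma adjusted p = 3.27e-18 for COL4A1, log2 change -7.47 ± 0.24, limma adjusted p = 9.34e-14 for COL4A2). The related chains COL4A5 (3.22) and COL4A6 (2.25) rose on the log2 scale against parental cells.

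**Figure D3:**
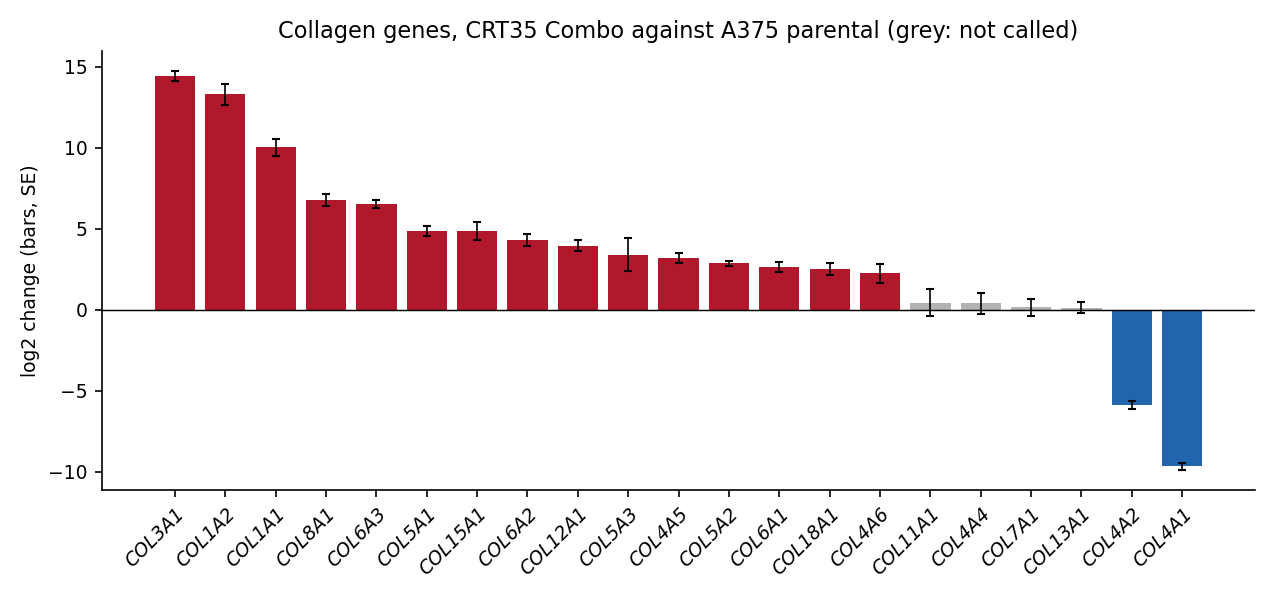
Log2 change of 21 collagen genes in CRT35 Combo cells against parental cells, with error bars for the standard error and grey columns for genes that were not called. COL3A1, COL1A2 and COL1A1 lie at the top of the range, and COL4A1 and COL4A2 are the 2 called genes below 0.

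Genes of the surrounding matrix were mostly higher as well. Of 32 matrix glycoproteins and proteoglycans, 24 were higher and 2 lower (median 2.10). FN1, the fibronectin gene, had 134925, 194492 and 176535 in CRT35 Combo cells, against 8314, 5365 and 8834 in parental cells (log2 change 4.51 ± 0.32, limma adjusted p = 1.8e-09). POSTN, which links collagen fibres, had 43658, 23766 and 22975 in CRT35 Combo cells, against 53.01, 55.1 and 42.6 in parental cells (log2 change 9.14 ± 0.31, limma adjusted p = 5.05e-14). LUM and DCN, proteoglycans that space collagen fibrils, changed by 5.03 and 4.97 on the log2 scale. All 4 genes were higher in every CRT35 Combo library than in any parental library. TNC and ACAN were lower (-1.24 and -2.96), though the call of TNC was lost when parental replicate 1 or 3 or CRT35 Combo replicate 1 or 2 was left out (adjusted p 0.0626 to 0.13), which left 1 lower member without parental replicate 1 or 3, without CRT35 Combo replicate 2 or with no filter on low values. Of 32 crosslinking enzymes, proteases and their inhibitors, 16 were higher and 4 lower, among them LOXL1, a collagen crosslinker, with 2742, 1933 and 2618 in CRT35 Combo cells, against 11.5, 4.05 and 15.7 in parental cells (log2 change 7.89 ± 0.55, limma adjusted p = 1.4e-09). MMP8 (-7.19) and SERPINE2 (-3.41) fell on the log2 scale.

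Integrins, which bind these matrix proteins, split evenly, with 5 higher and 5 lower of 19. ITGA11, a collagen receptor, had 5255, 5945 and 7637 in CRT35 Combo cells, against 56.6, 77.0 and 18.0 in parental cells (log2 change 7.14 ± 0.36, limma adjusted p = 1.36e-11). ITGA9 (-4.21) and ITGB8 (-2.64) fell on the log2 scale. After quantile normalisation 8 integrins were lower instead of 5.

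The TGF-beta list held 13 higher and 1 lower gene of 30, or 2 lower after quantile normalisation and without CRT35 Combo replicate 1. TGFB2, a ligand of the pathway, had 6676, 6226 and 3869 in CRT35 Combo cells, against 289, 181 and 138 in parental cells (log2 change 4.81 ± 0.40, limma adjusted p = 1.55e-08), and LTBP1, which stores the ligand in the matrix, changed by 3.70. PMEPA1, a target that restrains the pathway, fell to 102, 211 and 61.9 in CRT35 Combo cells, against 2618, 2537 and 3203 in parental cells (log2 change -4.64 ± 0.60, limma adjusted p = 3.97e-06). Among genes of the switch from epithelial to mesenchymal state, 6 of 16 were higher and 1 lower. CDH11, a mesenchymal cadherin, had 1886, 2117 and 1756 in CRT35 Combo cells, against 7.41, 37.4 and 100.5 in parental cells (log2 change 5.90 ± 0.54, limma adjusted p = 5.33e-08). Neither ZEB1 (2625, 3321 and 3185 in CRT35 Combo cells, against 3564, 3250 and 3065 in parental cells, log2 change -0.12 ± 0.32, limma adjusted p = 0.786) nor CDH2 (6631, 8641 and 12189 in CRT35 Combo cells, against 10478, 10462 and 10358 in parental cells, log2 change -0.23 ± 0.25, limma adjusted p = 0.448) was called, and VIM stood at 0.01 on the log2 scale. Of 28 targets and partners of YAP and TEAD, 12 were higher and 3 lower. WWTR1, which encodes the YAP paralogue TAZ, fell to 5435, 4923 and 3737 in CRT35 Combo cells, against 46562, 48914 and 51008 in parental cells (log2 change -3.39 ± 0.21, limma adjusted p = 2.38e-10). The number of higher members was 9 without parental replicate 3. CCN1 and CCN2, classical YAP targets, had log2 values of 1.42 and 0.52, of which only CCN1 was called. In the Wnt list, 10 of 32 genes were higher and 3 lower, among them WNT5A, a ligand of the β-catenin-independent branch, with 17948, 12693 and 8227 in CRT35 Combo cells, against 3139.9, 3084 and 2946 in parental cells (log2 change 2.01 ± 0.43, limma adjusted p = 0.000779), and LEF1, a nuclear partner of β-catenin, with 40.1, 41.6 and 37.9 in CRT35 Combo cells, against 1594, 1706 and 1976 in parental cells (log2 change -5.42 ± 0.29, limma adjusted p = 3.78e-11). Quantile normalisation raised the lower Wnt genes to 7, and the replicate block or the compared groups alone to 5.

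Inflammatory genes under NF-κB, a family of transcription factors activated by cytokines, were higher in CRT35 Combo cells for 21 of 33 members and lower for 0 (median 2.01, with 25 of 33, against 30.8% of all genes, higher and 0 lower at an unadjusted p below 0.05). IL6, a cytokine of the acute phase response, had 3189, 2762 and 2036 in CRT35 Combo cells, against 9.17, 51.9 and 54.8 in parental cells (log2 change 6.40 ± 0.98, limma adjusted p = 2.54e-05). CCL2, a monocyte chemokine, had 29605, 18549 and 25699 in CRT35 Combo cells, against 189, 2588 and 3014 in parental cells (log2 change 4.40 ± 0.85, limma adjusted p = 0.000286), and its parental replicate 1 stood far below the other 2 parental libraries. PTGS2, which makes prostaglandins, had 4706, 3571 and 1481 in CRT35 Combo cells, against 115, 158 and 208 in parental cells (log2 change 4.22 ± 1.06, limma adjusted p = 0.0027). VCAM1, an adhesion molecule, had 23560.5, 8306 and 14582 in CRT35 Combo cells, against 0, 11.1 and 3.26 in parental cells (log2 change 11.90 ± 0.73, limma adjusted p = 2.42e-10). All 4 genes were higher in every CRT35 Combo library than in any parental library, which for VCAM1 was a condition of its selection. Without parental replicate 1 the list held 16 higher members and 1 lower, and CXCL8, CXCL2, CXCL3 and BIRC3 lost their calls (limma adjusted p 0.0531 to 0.0621).

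BIRC3 belongs to the inhibitors of apoptosis, which block cell death downstream of the tumour necrosis factor receptor. BIRC3 had 3678, 4133 and 5451 in CRT35 Combo cells, against 241, 1104 and 1652 in parental cells (log2 change 2.52 ± 0.71, limma adjusted p = 0.00595). BIRC2 had 9995, 11182 and 11212 in CRT35 Combo cells, against 8698, 6938 and 7501 in parental cells (log2 change 0.49 ± 0.18, limma adjusted p = 0.0325), and XIAP had 6826, 6262 and 6078 in CRT35 Combo cells, against 5714, 4474 and 4734 in parental cells (log2 change 0.37 ± 0.27, limma adjusted p = 0.267), so that of the 3 only BIRC3 was called. Of 26 genes of this family and of death receptor signalling, 8 were higher and 1 lower (0 lower without CRT35 Combo replicate 2), including TNFSF10, which encodes the death ligand TRAIL, at 4.13, and CFLAR, an inhibitor of caspase 8, at 1.31. In the BCL2 family, BCL2A1 (5.52), BMF (2.85) and BOK (1.88) were higher and BCL2 (-1.91) lower of 16 genes. These counts do not exceed the 20.1% higher and 10.2% lower over all genes tested. BCL2A1 protects from cell death and BMF promotes it. The higher count was 5 with equal totals, without parental replicate 3 and without CRT35 Combo replicate 2, and the lower count was 3 after quantile normalisation or with the compared groups alone and 2 with the replicate block, a pseudocount of 10 or without CRT35 Combo replicate 1.

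Interferon-stimulated genes were higher for 26 of 37 members and lower for 1 (median 1.58), or 2 lower after quantile normalisation and without parental replicate 1. BST2, which tethers virions to the cell surface, had 10449.8, 7709.6 and 6239 in CRT35 Combo cells, against 80.5, 113 and 116 in parental cells (log2 change 6.27 ± 0.26, limma adjusted p = 1.13e-12). IFI27 had 72.6, 32.7 and 30.1 in CRT35 Combo cells, against 1.26, 0 and 0.112 in parental cells (log2 change 4.97 ± 0.86, limma adjusted p = 9.39e-05). XAF1, a partner of XIAP, had 1300.4, 708 and 941 in CRT35 Combo cells, against 6.16, 1.64 and 6.98 in parental cells (log2 change 7.48 ± 0.67, limma adjusted p = 4.19e-08). The 3 genes did not overlap between groups. IFITM1, IFITM2 and IFITM3 are closely related neighbours whose reads can be shared among them, so their changes of 5.21, 3.71 and 1.15 are uncertain. The member that fell was CMPK2, a mitochondrial nucleotide kinase (-1.50).

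Antigen presentation divided by class. Of 11 class II genes 10 were lower and 0 higher (median -5.50), while 10 of 15 class I genes were higher and 0 lower (median 1.39). At an unadjusted p below 0.05 in limma these counts were 11 lower and 0 higher in class II and 13 higher and 0 lower in class I, where 30.8% of all genes were higher and 26.1% lower. HLA-DRA, the class II alpha chain, had 15.1, 13.3 and 25 in CRT35 Combo cells, against 19192, 18513 and 18196 in parental cells (log2 change -10.00 ± 0.29, limma adjusted p = 7.04e-15). CIITA, the activator that switches class II genes on, had 89.9, 81.0 and 53 in CRT35 Combo cells, against 2597, 2138 and 1898 in parental cells (log2 change -4.89 ± 0.44, limma adjusted p = 4.69e-08). HLA-B, a class I heavy chain, had 31138, 23671 and 27875 in CRT35 Combo cells, against 2757, 1896 and 2086 in parental cells (log2 change 3.63 ± 0.22, limma adjusted p = 2.38e-10), and NLRC5, the activator of class I genes, had 2346, 1946 and 2487 in CRT35 Combo cells, against 749, 770.1 and 906 in parental cells (log2 change 1.48 ± 0.19, limma adjusted p = 3.3e-06). The 4 genes did not overlap between groups, which for HLA-DRA was a condition of its selection. HLA-DPB1 (-0.47) was the class II member that was not called. HLA genes are polymorphic and share sequence, and the split of reads among them is uncertain.

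Promoter sequences of 4 members of the interferon and NF-κB lists and of MCM3 are given next, from RefSeq (GRCh38.p14). They were chosen because the letters of the motif named for each are found there. Values of IFI6 and MCM3 are not given here, and a sequence says nothing of a change. The motif is in capitals. BST2 and IFI6 carry the interferon response element, searched as GAAA and GAAA with 2 bases of any kind between them, IL6 and BIRC3 the NF-κB motif, searched as GGG and TTTCC with 2 bases of any kind between them, and MCM3, a DNA replication gene, the E2F motif TTTCCCGC, all on both strands. In BIRC3 the NF-κB motif is read from the opposite strand. The motifs for interferon and NF-κB were chosen after the values had been seen. Each is a match of letters and no evidence of binding.

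BST2 (chr19:17405725-17405780, minus strand): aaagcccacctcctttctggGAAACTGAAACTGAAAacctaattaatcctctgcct

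IFI6 (chr1:27672261-27672363, minus strand): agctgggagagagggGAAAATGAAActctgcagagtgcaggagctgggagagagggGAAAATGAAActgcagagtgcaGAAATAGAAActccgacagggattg

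IL6 (chr7:22727107-22727156, plus strand): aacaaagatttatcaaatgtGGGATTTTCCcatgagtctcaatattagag

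BIRC3 (chr11:102317265-102317314, plus strand): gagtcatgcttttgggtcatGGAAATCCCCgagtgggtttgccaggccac

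MCM3 (chr6:52284889-52284936, minus strand): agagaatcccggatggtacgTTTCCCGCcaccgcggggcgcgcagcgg

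The interferon element was present in 19 of 28 promoters of interferon-stimulated genes for which RefSeq gave one, and in 4.38% of promoters over all 27305 genes. The NF-κB motif was present in 14 of 28 promoters of NF-κB targets, against 2.33% of all, and the E2F motif in 8 of 31 promoters of replication genes, against 1.98%. TEAD's GGAATG was present in 10 of 20 promoters of YAP and TEAD genes, against 16.7%, and AP-1's TGACTCA in 6 of 22 promoters of ERK targets, against 6.05%. The counts take in every list member with a promoter, called or not, and a match says nothing of a factor's binding. A promoter is here the stretch of 250 bases before to 50 after the start. Among the genes named for the largest changes, 6 of 15 higher and 9 of 15 lower genes had one. The SOX motif AACAAAG was found in 0 of 6 higher and 1 of 9 lower promoters (6.35% of all), the M-box CATGTG in 2 of 6 and 3 of 9 (13.4%), and the ETS motif CCGGAAGT in 0 of 6 and 0 of 9 (4.95%), all on both strands.

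Most DNA replication genes fell. Of 36 tested, 23 were lower and 0 higher (median -1.21, with 33 of 36, against 26.1% of all genes, lower and 0 higher at an unadjusted p below 0.05 in limma). MCM2, a part of the replicative helicase, had 3489.6, 5240.1 and 6239 in CRT35 Combo cells, against 18464, 16259 and 17125 in parental cells (log2 change -1.83 ± 0.26, limma adjusted p = 9.87e-06). PCNA, the sliding clamp, had 7036, 8772 and 9223 in CRT35 Combo cells, against 24846, 21792 and 23006 in parental cells (log2 change -1.48 ± 0.18, limma adjusted p = 1.58e-06). CCNE2, a cyclin of the G1 to S transition, had 1016, 1393 and 1032 in CRT35 Combo cells, against 4082, 3185 and 2921 in parental cells (log2 change -1.57 ± 0.43, limma adjusted p = 0.00491). The groups did not overlap in these 3 genes. E2F1, a transcription factor of replication genes, changed by -1.51. Without CRT35 Combo replicate 1, 14 members were lower instead of 23, and without CRT35 Combo replicate 3, 29. Of 32 genes of mitosis, 2 were lower (MYBL2 at -1.53 and MAD2L1 at -1.03) and 0 higher, with a median of -0.49 (6 lower and 0 higher at an unadjusted p below 0.05, against 26.1% and 30.8% of all genes). MAD2L1 fell short of a 2-fold change with equal totals, after quantile normalisation, without parental replicate 1 and without CRT35 Combo replicate 1, each leaving 1 lower gene, and 8 were lower without CRT35 Combo replicate 3. MKI67, a mark of cycling cells, had 12646, 29130.5 and 36438 in CRT35 Combo cells, against 40794, 28396 and 30603 in parental cells (log2 change -0.47 ± 0.41, limma adjusted p = 0.357).

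The regulators of G1 changed at few genes. Of 19 tested, 2 were higher and 2 lower, against 20.1% and 10.2% of all genes. CDKN1A, the CDK inhibitor p21, had 52408, 32622 and 16035 in CRT35 Combo cells, against 5269.8, 4922 and 5015 in parental cells (log2 change 2.57 ± 0.42, limma adjusted p = 5.79e-05), and CCND2, a second D-type cyclin, changed by 3.31. CDKN1B, the inhibitor p27, had 2314, 2138 and 3297 in CRT35 Combo cells, against 2296, 2157 and 2057 in parental cells (log2 change 0.23 ± 0.21, limma adjusted p = 0.379), CCND3 had 2105, 2634 and 2233 in CRT35 Combo cells, against 2691, 2312 and 2530.1 in parental cells (log2 change -0.12 ± 0.18, limma adjusted p = 0.626), and RB1, the retinoblastoma gene, had 4979.5, 5302 and 5807 in CRT35 Combo cells, against 8733, 6967 and 7057 in parental cells (log2 change -0.50 ± 0.18, limma adjusted p = 0.0296). None of these 3 was called. CDKN1A is a p53 target, and 10 of 22 genes of that list were higher with 1 lower (0 after quantile normalisation), including GDF15, a secreted stress factor, with 5942, 4113 and 1907 in CRT35 Combo cells, against 149, 235 and 225 in parental cells (log2 change 4.17 ± 0.48, limma adjusted p = 8.68e-07). MDM2, the inhibitor of p53, was at 0.91 on the log2 scale and was not called. Ribosome biogenesis genes and MYC targets were lower for 17 of 34 members and higher for 1 (2 with equal totals, without parental replicate 1 or without CRT35 Combo replicate 3). NOP56, a nucleolar protein, had 5566, 9129 and 8741 in CRT35 Combo cells, against 37820.5, 28419.7 and 29939 in parental cells (log2 change -2.06 ± 0.25, limma adjusted p = 1.98e-06). The member that was higher was MXD4, which opposes MYC, at 2.20.

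Metabolic and stress genes were called in both directions. Of 34 genes of hypoxia and glycolysis, 10 were higher and 2 lower. EPAS1, which encodes the hypoxia factor HIF-2α, had 16548, 9089 and 10285 in CRT35 Combo cells, against 108, 214 and 133 in parental cells (log2 change 6.30 ± 0.25, limma adjusted p = 7.12e-13), and SLC16A3, a lactate transporter, had 4245, 3523 and 3249 in CRT35 Combo cells, against 276, 321 and 376 in parental cells (limma adjusted p = 2.04e-11). HK2, the first enzyme of glycolysis, fell (-1.27). Of 31 nuclear respiratory chain genes 0 were called by limma (median -0.18), and 4 were higher and 11 lower at an unadjusted p below 0.05, against 30.8% and 26.1% of all genes and 4 and 8 of 16 housekeeping genes. With the replicate block or the compared groups alone 1 was called higher. Of 13 mitochondrial mRNAs 3 were higher and 1 lower, MT-CO2 at 1.81 and MT-ND6 at -1.58. The call of MT-CO1, one of the 3, was lost without CRT35 Combo replicate 1, while 5 were higher without parental replicate 3 or CRT35 Combo replicate 3. Mitochondrial transcripts were at a larger share of CRT35 Combo libraries, as given above, and the part of that share in these changes was not tested. Sterol and fatty acid synthesis had 2 higher genes of 25, INSIG1 and STARD4, of which INSIG1 was at 0.79 on the log2 scale, short of a call, without parental replicate 1. Lysosome and autophagy genes were higher for 9 of 25 and lower for 0 (20 of 25 higher and 0 lower at an unadjusted p below 0.05, against 30.8% and 26.1% of all genes), among them WIPI1 (2.70) and TFEB (2.10), the transcription factor of lysosomal genes. Of 20 stress response genes, 2 were higher and 6 lower, among which ASNS, SLC7A11 and PHGDH, which serve amino acid supply, changed by -1.46, -1.57 and -1.53. Axon guidance and neurotrophic receptors were higher for 12 and lower for 8 of 30, including SEMA5A (6.88) and EPHA7 (-5.32). Of 22 efflux and detoxification genes, 6 were higher and 3 lower, against 20.1% and 10.2% of all genes, but 3 were higher without CRT35 Combo replicate 1. CYP1B1, an enzyme of xenobiotic metabolism, had 9226, 3984 and 3421 in CRT35 Combo cells, against 308, 200.3 and 128 in parental cells (log2 change 4.65 ± 0.46, limma adjusted p = 1.59e-07). ABCB1, the P-glycoprotein pump, changed by 1.25. Of 16 housekeeping genes 1 was called, B2M (1.73), which is also the light chain of class I.

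Markers of other cell types differed between lists, and only the fibroblast markers tested were all higher. Of 14 fibroblast markers, 13 were tested and all 13 were higher (median 4.97), and their summed level was 330438 to 537444 in CRT35 Combo libraries and 1107 to 1291 in parental libraries, with DPT below a mean of 10 and no member at 0 in CRT35 Combo cells. The fibroblast list shares type I and type III collagen genes with the collagen list. These abundant genes carry much of its sum in CRT35 Combo libraries. FAP, a protease of activated fibroblasts, had 2837, 2524 and 2365 in CRT35 Combo cells, against 48.5, 53.7 and 52.9 in parental cells (log2 change 5.61 ± 0.23, limma adjusted p = 1.01e-12), and THY1, a surface protein of fibroblasts, had 48969, 54913 and 55108 in CRT35 Combo cells, against 14.8, 0.929 and 2.33 in parental cells (log2 change 13.47 ± 0.66, limma adjusted p = 1.18e-11), part of its span lying over USP2-AS1. Leukocyte markers summed to 8481 to 17818 in CRT35 Combo libraries and 1642 to 1817 in parental libraries, while the defining genes CD3E, NKG7 and TYROBP were at 0 in every CRT35 Combo library and 11 of 18 had a mean under 10. Among the 7 that rose, PTPRC changed by 3.72 and CD4 by 4.79. Of 10 endothelial markers tested, 4 were higher and 1 lower. Endothelial markers summed to 6489 to 9167 in CRT35 Combo libraries and 1240.4 to 1618 in parental libraries, with none at 0 in CRT35 Combo cells. PECAM1 (3.09) and TEK (7.38) were called among them, and CDH5 (0.45) and VWF (1.17) were not. Of 8 keratinocyte markers 2 were higher (1 with a pseudocount of 10) and 3 lower, and their sum was 6693 to 13315 in CRT35 Combo libraries and 6499 to 7429.6 in parental libraries. The part of other cell types in the values of these genes was not tested.

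**Figure D4:**
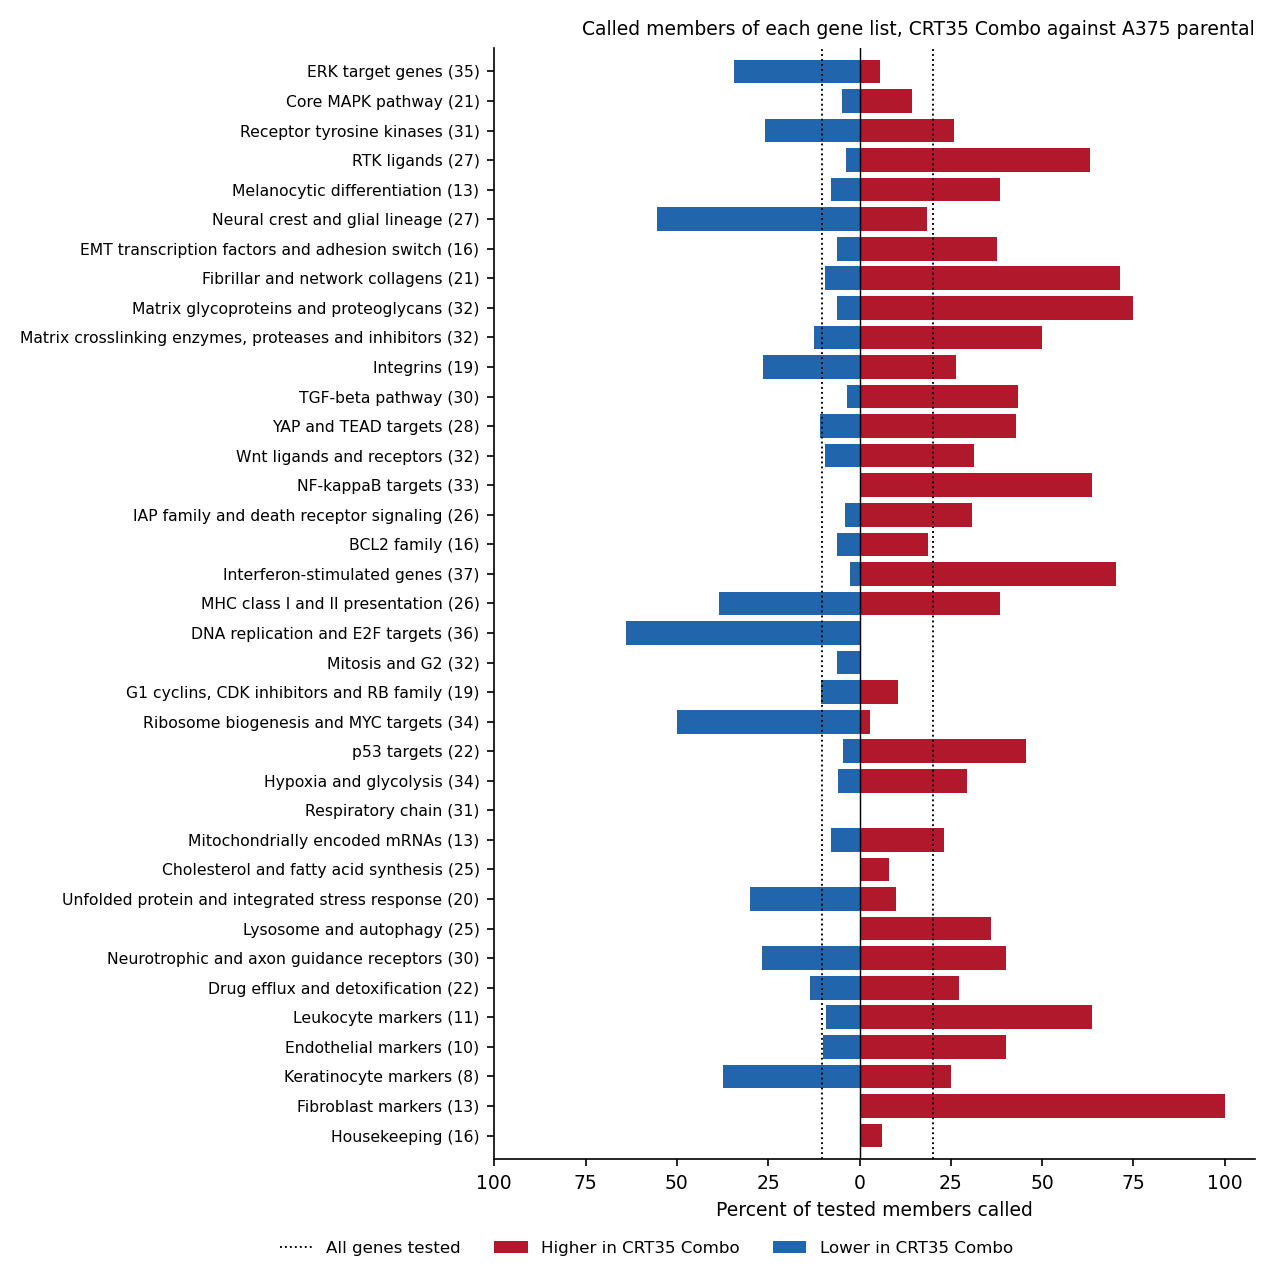
Percent of the tested members of each of 37 gene lists that were higher (red) or lower (blue) in CRT35 Combo cells against parental cells, with dotted lines at the 20.1% higher and 10.2% lower over all genes tested. Fibroblast markers, collagens, matrix glycoproteins and interferon-stimulated genes extend far to the higher side, and DNA replication and neural crest genes to the lower side.

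The named genes with the largest changes were chosen as the 15 with the largest change in each direction, of 1356 higher and 948 lower genes that passed the rule. The rule required a protein-coding gene with a call, at least 10 CPM in the higher group and no overlap between the groups. Beside the collagens, THY1 and VCAM1, the higher set held CD248, a pericyte protein, with 2304, 1578 and 2155 in CRT35 Combo cells, against 1.06, 0 and 0 in parental cells (log2 change 10.61 ± 0.35, limma adjusted p = 4.68e-14), CD36, a fatty acid transporter, with 6928, 3688 and 3581 in CRT35 Combo cells, against 0.918, 1.77 and 5.22 in parental cells (log2 change 10.46 ± 0.59, limma adjusted p = 7.34e-11), and MYOCD, a co-activator of smooth muscle genes, with 2337, 2781 and 2894 in CRT35 Combo cells, against 6.24, 0 and 1.84 in parental cells (log2 change 9.92 ± 0.63, limma adjusted p = 3.66e-10). IDO1, which degrades tryptophan, had 4614, 1409.8 and 783 in CRT35 Combo cells, against 0, 3.90 and 0 in parental cells (log2 change 9.99 ± 0.72, limma adjusted p = 2.49e-09). In these 4 genes the parental libraries had at most a few counts. ATP8B1, a phospholipid flippase, was listed at 0 in parental libraries and had 1670.4, 3419 and 3894 in CRT35 Combo libraries, and BDKRB1, the inducible bradykinin receptor, was listed at 0 there and had 2741, 1560.5 and 2198. These were 2 of 20 genes at 0 in parental cells with a mean of 100 or more in CRT35 Combo cells. The others with the highest means were SPINK6, TMEM204, MFAP4, FIBIN, IL33 and RIPOR3, and SPINK6 had 1627, 767 and 34.1. In the other direction 9 genes were listed at 0 in CRT35 Combo cells, among them SOX11, a neural transcription factor, with 1959, 2492 and 2643 in parental libraries, MUC5B with 1559, 1252 and 1179 and GJB1, a connexin of Schwann cells and other tissues, with 367, 406 and 361. ANKRD30A was another, with 718, 686 and 660 in parental libraries. MEOX2, a homeobox factor, had 2.52, 8.58 and 7.10 in CRT35 Combo cells, against 4696, 6320 and 6115 in parental cells (log2 change -9.77 ± 0.42, limma adjusted p = 1.65e-12), and SYTL5 had 10.2, 5.78 and 0.890 in CRT35 Combo cells, against 5136, 5971 and 7526 in parental cells (log2 change -10.20 ± 0.85, limma adjusted p = 1.67e-08).

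Beyond the ERK targets, the comparison of CRT35 Combo with CRT35 DMSO cells named 8 higher and 8 lower genes. CCN1, a matricellular protein induced by YAP, had 14995, 15688 and 12762 in CRT35 Combo cells, against 4331, 2479 and 2663 in CRT35 DMSO cells (log2 change 2.24 ± 0.30, limma adjusted p = 0.000496). FRMPD4, a postsynaptic scaffold, had 873, 496 and 479.6 in CRT35 Combo cells, against 182, 121 and 149 in CRT35 DMSO cells (log2 change 1.99 ± 0.33, limma adjusted p = 0.00383). Both kept their calls whichever library of the 2 groups was left out. The other 6 higher genes, OLR1, CPA4, SAMD11, CD24, TMEM52B and ALDH3B1, changed by 1.91 to 2.98 on the log2 scale and lost their calls when certain libraries were left out, all 6 of them without CRT35 Combo replicate 1 (adjusted p 0.122 to 0.262). OLR1 and TMEM52B overlap over 1597 bases, so reads can pass between them. On the lower side, JAG1, a Notch ligand, had 1126, 1431 and 919 in CRT35 Combo cells, against 10331, 6662 and 6118 in CRT35 DMSO cells (log2 change -2.72 ± 0.28, limma adjusted p = 5.31e-05), and TMEM158 had 625, 876 and 466 in CRT35 Combo cells, against 4034, 3855 and 3631 in CRT35 DMSO cells (log2 change -2.59 ± 0.31, limma adjusted p = 0.000219). SLC14A1, a urea transporter, had 318, 916 and 267 in CRT35 Combo cells, against 3873, 3173 and 3135 in CRT35 DMSO cells (log2 change -2.98 ± 0.37, limma adjusted p = 0.000232), and STC1, a secreted calcium regulator, had 1994, 2671 and 747 in CRT35 Combo cells, against 19615, 16993 and 15153 in CRT35 DMSO cells (log2 change -3.44 ± 0.49, limma adjusted p = 0.001). HAS2, IL33 and ANXA10 were also named but lost their calls without at least 1 library, IL33 without CRT35 Combo replicate 3 (adjusted p 0.0533). Among genes of the lists, TGFB2 (1.88) was higher and ITGA2 (-2.33), an integrin, and BMP2 (-1.59) were lower on the log2 scale. SOX10 and COL4A1 had 0 in each library and 15.8, 13.8 and 15.5 in CRT35 DMSO libraries, and neither was called against CRT35 Combo cells. The number of genes called fell to 97 without CRT35 Combo replicate 1, 119 without CRT35 Combo replicate 3, 100 without CRT35 DMSO replicate 2 and 109 without CRT35 DMSO replicate 3, and it was 206 without CRT35 DMSO replicate 1, the shallowest library.

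CRT34 Combo cells, on the same inhibitors at the same doses, differed from CRT35 Combo cells at 1333 of 19290 genes (6.91%), 612 higher in CRT35 Combo cells (3.17%) and 721 lower (3.74%). Same-numbered libraries of these 2 groups deviated together to a small degree (r 0.207 to 0.253), and a fit with the number as a block called 1085 genes. Values of this comparison are from the fit without the block, except where the block is named. CTAG2, a cancer-testis antigen with near-identical relatives, had 1751, 1791 and 1654 in CRT35 Combo cells, against 8.76, 3.97 and 2.34 in CRT34 Combo cells (log2 change 8.31 ± 0.46, limma adjusted p = 1.14e-09). PIK3CG, a phosphoinositide kinase subunit of immune cells, had 1589.8, 1378 and 1121 in CRT35 Combo cells, against 42.9, 35.1 and 15.4 in CRT34 Combo cells (log2 change 5.51 ± 0.99, limma adjusted p = 0.000895). MXRA8, a surface protein, had 1100.5, 971 and 1181 in CRT35 Combo cells, against 28.3, 26.9 and 22.4 in CRT34 Combo cells (log2 change 5.34 ± 0.42, limma adjusted p = 1.1e-07). Of the NF-κB list 9 of 33 members were higher and 0 lower in CRT35 Combo cells (17 of 33 higher and 0 lower at an unadjusted p below 0.05, against 2710 and 2622 of all 19290 genes), with IL1B at 8329, 8259 and 2899 in CRT35 Combo cells, against 164, 172 and 834 in CRT34 Combo cells (log2 change 4.34 ± 0.61, limma adjusted p = 8.91e-05) and CXCL1 at 56392, 30345 and 23329.5 in CRT35 Combo cells, against 821, 938 and 27795 in CRT34 Combo cells (log2 change 3.62 ± 0.88, limma adjusted p = 0.00938). CRT34 Combo replicate 3 stood far above the other CRT34 Combo libraries for CXCL1 and lay within the range of CRT35 Combo cells. CSF2 and CXCL3 changed by 5.45 and 3.98, but their adjusted p rose to 0.0524 and 0.103 with the block, and without CRT34 Combo replicate 2 that of CXCL3 was 0.065. In the collagen list 6 of 21 were higher and 2 lower, COL1A1 at 3.59 and COL6A2 at 2.42 on the log2 scale. BMP5, a bone morphogenetic protein, had 22.7, 9.55 and 42.7 in CRT35 Combo cells, against 5462, 4656 and 4079 in CRT34 Combo cells (log2 change -7.73 ± 0.62, limma adjusted p = 1.18e-07), and MEOX2 had 2.52, 8.58 and 7.10 in CRT35 Combo cells, against 743, 477 and 1328 in CRT34 Combo cells (log2 change -6.91 ± 0.42, limma adjusted p = 4.25e-09). A2M, a protease trap in blood and tissue, had 37.4, 45.5 and 94.4 in CRT35 Combo cells, against 10307, 5341 and 614 in CRT34 Combo cells (log2 change -5.87 ± 0.98, limma adjusted p = 0.000479).

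Changes were also arranged by chromosome, over 12133 protein-coding genes with a mean of 100 or more, whose median change was -0.05. Chromosome 13 had a median of -0.78 (211 genes), chromosome 3 -0.60 (681 genes) and chromosome 20 -0.47 (318 genes), while chromosome 14 had 0.28 (400 genes). The other 19 chromosomes were between -0.14 and 0.11, mitochondrial genes aside. CRT35 DMSO libraries, compared with the same parental libraries, gave medians of -0.63, -0.51 and -0.47 on chromosomes 13, 3 and 20, and 0.35 on chromosome 14, while CRT34 Combo libraries gave -0.35, -0.17, -0.16 and -0.07. Groups of the series not compared here were CRT34 DMSO (CRT34 cells in solvent) and the SOX10 knockouts gSOX10 #2 and gSOX10 #4. In that order their medians were -0.32, -0.38 and -0.54 on chromosome 13. On chromosome 3 they were -0.14, -0.11 and -0.08, and on chromosome 20 -0.06, 0.004 and -0.22. The comparisons share the parental libraries, and copy number was not measured here. On chromosomes 3, 13 and 20 together, chosen after their medians were seen, 28.3% of 1210 genes were lower and 8.26% higher, against 7.68% and 16.5% of 10923 genes elsewhere.

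Within chromosome 13 the medians were lowest in bins of 20 Mb from 80 to 100 Mb (-1.19) and from 100 to 120 Mb (-1.17), where CRT34 Combo libraries had -0.24 and -0.28. COL4A1 and COL4A2 lie there, and 21 neighbouring genes had a median change of -1.35, a range of -4.80 to 1.97, and 19 below 0. On chromosome 3 the bins from 0 to 160 Mb lay between -0.56 and -0.78, and those from 160 to 200 Mb at -0.17 and -0.30. Of 36 replication genes tested, 6 lie on chromosomes 3, 13 or 20, and these 6 are among the 23 that fell. Of 21 collagens tested, 4 lie on these chromosomes, and both that fell are among these 4. The part of chromosome dosage in any gene's change was not tested.

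**Figure D5:**
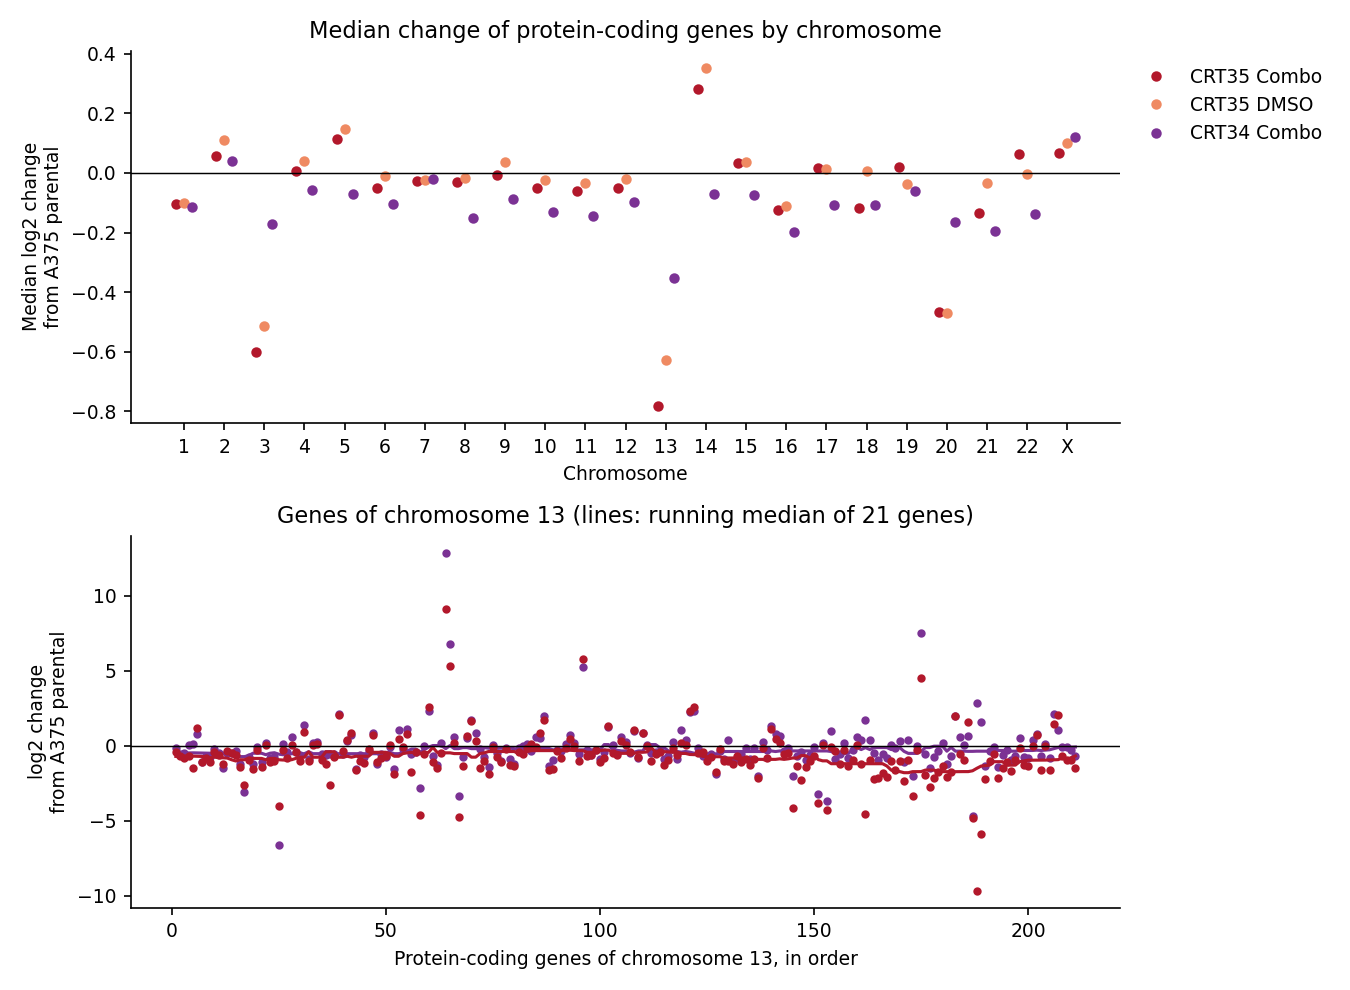
At the top, the median log2 change of protein-coding genes per chromosome against parental cells for CRT35 Combo, CRT35 DMSO and CRT34 Combo cells. At the bottom, log2 changes of protein-coding genes of chromosome 13 in their order, with a running median of 21 genes, for CRT35 Combo (red) and CRT34 Combo (purple) cells. The red median lies under the purple one toward the far end of the chromosome.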

How the data were processed

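RNA was sequenced as 101 bp paired-end reads from 21 libraries in 7 groups of 3, of which 6 (CRT35 Combo and A375 parental) are the subject here. Per the submitters' processing notes, the authors aligned reads with STAR 2.6.1a to GRCh38, estimated reads per gene with RSEM and normalised them. The study's reporting summary names a later STAR version. The deposited values behave as read estimates divided by DESeq2-type size factors, a signal that is comparable between libraries but not between genes of different length. Per the labels the kit was one that does not keep strand and per the methods one that does, so strandedness is not settled here. Whole reads could not be recovered, since 18.0% to 63.5% of low values fell within 0.05 of a whole step, and no count model was used. Depth was estimated from the value of 1 read.

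Genes with a value of 10 or more in at least 3 libraries (19290 of 58870) were tested with limma 3.58.1 in R 4.3.3 (limma-trend) on log2(value + 1), with a mean for each of the 7 groups over all 21 libraries, 14 residual and 4.7 prior degrees of freedom, Benjamini-Hochberg adjustment over all genes, and calls required both a 2-fold change and adjusted p at or below 0.05. Gene identifiers were matched to GENCODE v44 (58472 of 58870). Promoters came from RefSeq. Named genes were SOX10, a panel of 24 genes, the 15 largest changes each way against parental cells and 8 each way in the other comparisons among protein-coding genes that met the abundance minimum of 10 CPM, and called members of 37 lists. The largest changes were taken only from called genes with no overlap between the groups compared. Called members of lists were named mainly for low p. The members and lists were chosen with earlier results of these data known.

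Replicate numbers were checked as a pairing by the correlation of deviations from the group means. It was -0.144, -0.075 and -0.029 with parental and 0.085, -0.002 and 0.097 with CRT35 DMSO libraries, and 0.218, 0.253 and 0.207 with CRT34 Combo libraries. Whether libraries were paired was not tested beyond these values, and the main fit used no pairing. Alternatives were the compared groups alone, no filter, a pseudocount of 10, rescaled totals, quantile normalisation, the replicate block and leaving out each library. A few genes are not reported here.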

Additional observations from a re-analysis of the deposited data

Results flagged for a closer look

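Against the same parental libraries, 5839 genes were called in CRT35 Combo cells and 5239 in CRT34 Combo cells. Of these, 9 protein-coding genes were called in opposite directions in the 2 lines, and the difference between the lines was itself tested with limma. The number called in the same direction in both was not counted, and the 2 comparisons share the parental libraries. Genes with 10 CPM or more were considered. Values are log2(normalised count + 1) differences.

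COL4A1 and COL4A2 were lower against parental cells in CRT35 Combo cells (-9.66 and -5.87) and higher in CRT34 Combo cells (2.86 and 1.60), a difference of -12.52 and -7.47 between the lines. HS6ST3, a heparan sulfate sulfotransferase that also lies on chromosome 13, had 7.90, 13.0 and 3.71 in CRT35 Combo cells, against 588, 544 and 917 in CRT34 Combo cells, with -4.56 and 1.75 against parental cells and a difference of -6.31 between the lines. CDCP1, a transmembrane protein, had 58.6, 92.6 and 35.3 in CRT35 Combo cells, against 1891, 3435 and 5512 in CRT34 Combo cells, with -4.27 and 1.54 against parental cells and a difference of -5.81. GLUL, which makes glutamine, had 272, 352 and 816 in CRT35 Combo cells, against 3327, 3495 and 3893 in CRT34 Combo cells, with -1.50 and 1.56 against parental cells and a difference of -3.06. PLCXD3 differed by -5.27, ZNF727 by -3.99 and ZNF676 by -3.19, each lower in CRT35 Combo cells and higher in CRT34 Combo cells than in parental cells. AKR1C2, an aldo-keto reductase with near-identical relatives, went the other way, with 2286, 1423 and 1652 in CRT35 Combo cells, against 329, 286 and 546 in CRT34 Combo cells, with 1.10 and -1.13 against parental cells and a difference of 2.23. Its call against parental cells in CRT35 Combo cells was lost without parental replicate 1 or 3 or CRT35 Combo replicate 1 or 3 (adjusted p 0.0686 to 0.161), after quantile normalisation (0.0753) and with no filter on low values (0.0663).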

How the results depend on the processing

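Against parental cells, leaving out a library gave 4968 to 6011 called genes (3341 to 3929 higher, 1627 to 2082 lower), and no alternative moved these counts by over 1.5 times. Of 427 named or listed genes called, 69 lost the call under at least 1 alternative (63 on leaving out a library, 26 under quantile normalisation) and 0 reversed. Against CRT35 DMSO cells the 219 calls were 97 to 206 on leaving out a library (21 to 123 higher, 67 to 106 lower), 153 genes were higher with the compared groups alone, and the replicate block, of numbers that did not pair there, gave 402 called and 250 higher. Of 16 named genes 9 lost their call on leaving out a library and 0 under the block. Against parental cells the block gave 5773 calls. Against CRT34 Combo cells the 1333 calls were 964 to 1480 (445 to 862 higher, 519 to 826 lower), 379 genes were higher with the compared groups alone, and 1085 were called with the block, under which CSF2 and CXCL3 lost their calls, as they did with the compared groups alone, and the other 14 named genes kept theirs. Genes listed at 0 in parental cells numbered 34 with a minimum mean of 50 and 11 with 200, in place of 20. With a minimum mean of 10 the chromosome medians were 0.31 on chromosome 14 and -0.42 on chromosome 20. The cause of these shifts was not tested. Depth limits genes with few reads, whose changes log2(value + 1) understates.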
